A study of Mus musculus with 6 samples.

Results

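The genes described here are the amino acid transporter genes of cardiac macrophages, taken as every row of the deposited expression table whose symbol belongs to the families Slc1a, Slc3a, Slc6a, Slc7a, Slc36a, Slc38a or Slc43a, apart from the arginine carriers Slc7a1 and Slc7a2 and names marked as pseudogenes. Of 34745 genes in the table, 64 met this rule. Of these, 60 are carriers or their heavy chains, and 4 (Slc6a19os, Slc7a6os, Slc36a1os and Slc36a3os) carry the name of the gene on the opposite strand and are counted apart. RNA came from the hearts of C57BL/6 mice aged 8 weeks, either lacking the lysosomal protease legumain (Lgmn KO, 3 libraries, replicates 1, 2 and 4) or wild type (WT, 3 libraries, replicates 1, 2 and 3). Cells were released with collagenase, elastase and DNase and stained for CD45, CD64 and CD11b. The series places all samples after myocardial infarction, while the labels name coronary ligation or sham surgery without assigning either to an animal, and they give neither the design of the Lgmn allele nor whether each library came from a separate animal. P-values therefore weigh differences against the spread among these libraries, and that spread may be technical.

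Amino acids cross membranes only through carriers, which differ in the ions they couple to and in the membrane they sit in. Slc1a, Slc6a and Slc38a proteins mostly use the sodium gradient to concentrate their substrate. Slc7a light chains exchange 1 amino acid for another once joined to an Slc3a heavy chain. Some Slc36a proteins move protons with the amino acid, and Slc43a proteins let it pass down its gradient. In macrophages, which digest whole dead cells, carriers of the lysosomal membrane also return amino acids from the digested material to the cytosol, and some of them report the lysosome's amino acid content to the growth regulator mTORC1.

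Total counts per library lay between 19546253 and 24086976, so that an absence of counts for a gene leaves room for up to 0.125 to 0.153 CPM in that library (CPM being read counts over a library size corrected by TMM; the limit is 3 counts and covers counting error only). Lgmn was at 78.6, 88.4 and 83.4 CPM in Lgmn KO against 2203, 2690 and 2276 in WT, as the labels state. The 9 macrophage markers summed to 20165 to 23466 CPM in Lgmn KO against 21706 to 23300 in WT, with Lyz2 the largest part (13803 to 17996 CPM). Of them 7 had a negative log2 fold change, 6 of these at an unadjusted p below 0.05 (against 17.5% of all tested genes). Of the 9, 1, C1qa, was called lower (-2.37, adjusted p = 0.0486 in edgeR's quasi-likelihood test). The 9 cardiomyocyte markers summed to only 3.60 to 4.60 and 4.04 to 5.01 CPM. The 7 fibroblast markers summed to 45.4 to 117 CPM in Lgmn KO and 132 to 180 CPM in WT. The 8 endothelial markers summed to 24.1 to 42.0 CPM in Lgmn KO against 36.5 to 42.1 in WT, mostly Kdr (21.5 to 39.9 CPM). Among them Flt1 was called lower in Lgmn KO (1.43, 0.919 and 1.22 CPM against 11.1, 7.4 and 6.38), and Tek and Emcn had 0 counts in every library.

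A small number of carriers made up most of the transporter message. Of the 60 transporter genes, 40 had at least 1 count and 20 had none in any library. On the deposited FPKM scale, which divides counts by gene length and library size and so allows genes to be compared, 1 gene had a mean above 100, 11 reached 10 and 21 reached 1. The first 10 genes held 87.7% to 89.5% of the summed transporter FPKM of each library. Slc6a6, the taurine carrier, stood first with a mean of 112 FPKM over the 6 libraries (22.8% to 27.4% of the sum), place 302 among all genes of the table. Slc3a2, the heavy chain CD98 that brings the Slc7a light chains to the plasma membrane, came next with 64.6 FPKM. The ranges of these genes overlapped neither each other nor that of the third gene, the creatine carrier Slc6a8 with 39.5 FPKM. From Slc6a8 on, the next places were taken by Slc36a4 (32.3 FPKM), Slc7a8 (30.1), Slc36a1 (29.2), Slc38a7 (24.4), Slc43a2 (20) and Slc38a2 (19.7), each overlapping its neighbour in the range over libraries, so their order is not fixed. Slc38a1 (14.0 FPKM) and Slc38a10 (12.6) followed.

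By family, Slc6a took the largest share of transporter FPKM in every library (30.2% to 38.1%), nearly all of it from Slc6a6 (73.3% of the family) and Slc6a8 (25.8%). Slc38a held 17.3% to 18.5%, and it was the most evenly spread family, with its first member, Slc38a7, at 31.1% of the family's FPKM. Slc3a took 13.7% to 15.9% and Slc36a 13.3% to 15.5%. Slc7a took 9.39% of the transporter FPKM in Lgmn KO and 13.1% in WT on average. Slc43a and Slc1a were the smallest, with 4.49% to 5.47% and 1.33% to 1.78%, and came almost wholly from Slc43a2 (93.1%) and Slc1a5 (98.7%). Summed over all 60 genes the level was 433, 459 and 462 FPKM in Lgmn KO and 458, 397 and 408 FPKM in WT, so the groups overlapped.

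**Figure D1:**
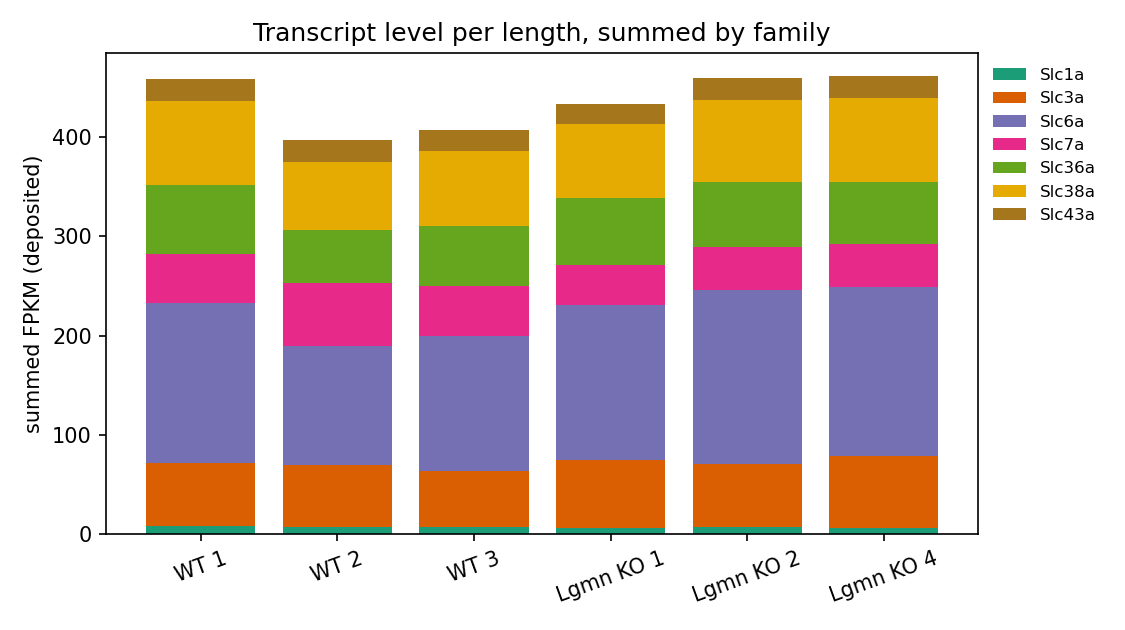
Deposited FPKM (vertical axis) summed over the transporter genes of each family, 1 bar per library, with WT on the left and Lgmn KO on the right. Slc6a is the largest segment in all 6 libraries, and the Slc7a segment is 63.3 FPKM at its highest in WT and 40.8 to 43.3 FPKM in Lgmn KO.

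The carriers with 0 counts everywhere included many known from neurons, kidney and gut. In Slc6a these were 10 of 20 genes, among them Slc6a11 (GABA), Slc6a2 (noradrenaline), Slc6a3 (dopamine), Slc6a5 (glycine), Slc6a7 (proline), Slc6a16, Slc6a18, Slc6a20a and Slc6a20b. In Slc7a they were Slc7a9, Slc7a10, Slc7a12, Slc7a14 and Slc7a15, in Slc1a the glutamate carriers Slc1a6 and Slc1a7, and in Slc38a Slc38a5, Slc38a8 and Slc38a11. A further 16 genes had counts but too few to be tested, with at most 26 in a library. They included the glutamate carriers Slc1a1 (1 count in all) and Slc1a3 (5 counts in all), the renal heavy chain Slc3a1 (1 count) and the leucine carrier Slc43a1 (33 counts). Slc1a2, another glutamate carrier, had 9, 0 and 1 counts in Lgmn KO against 5, 9 and 12 in WT. Slc6a14 had 7 counts, all in WT replicate 1. Of the opposite-strand names only Slc7a6os was tested, a protein-coding neighbour that is no carrier. It was at 20.1, 19.6 and 18.4 CPM in Lgmn KO against 21.2, 20.7 and 18.3 in WT (log2 fold change -0.05, adjusted p = 0.852, edgeR quasi-likelihood test).

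Between Lgmn KO and WT the transporter message differed little, with a single gene past the threshold. Of the 24 transporter genes tested, 1 rose and 0 fell (adjusted p below 0.05 in edgeR's quasi-likelihood test, adjusted after Benjamini and Hochberg over 12546 genes), which is 4.17% of 24 against 0.789% of all tested genes and rests on 1 gene. At an unadjusted p below 0.05 there were 4 of 24, where 17.5% of all tested genes reached it. The groups did not overlap for 7 of the 24 (29.2%, against 23.7% of all tested genes), 4 higher and 3 lower in Lgmn KO. The log2 fold change was positive for 16 (66.7%, against 49.6% of all tested genes) and negative for 8. Its median was 0.05, where the median over all genes was -0.002. The log2 fold change lay within 0.5 of 0 for 23 of the 24 (95.8%, against 85.2% of all tested genes). Of the 24, 22 lay above the level needed for testing in every library, and Slc1a4 and Slc7a4 did not. In a sorted bulk sample, fewer cells of a type and less RNA per cell cannot be told apart.

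**Figure D2:**
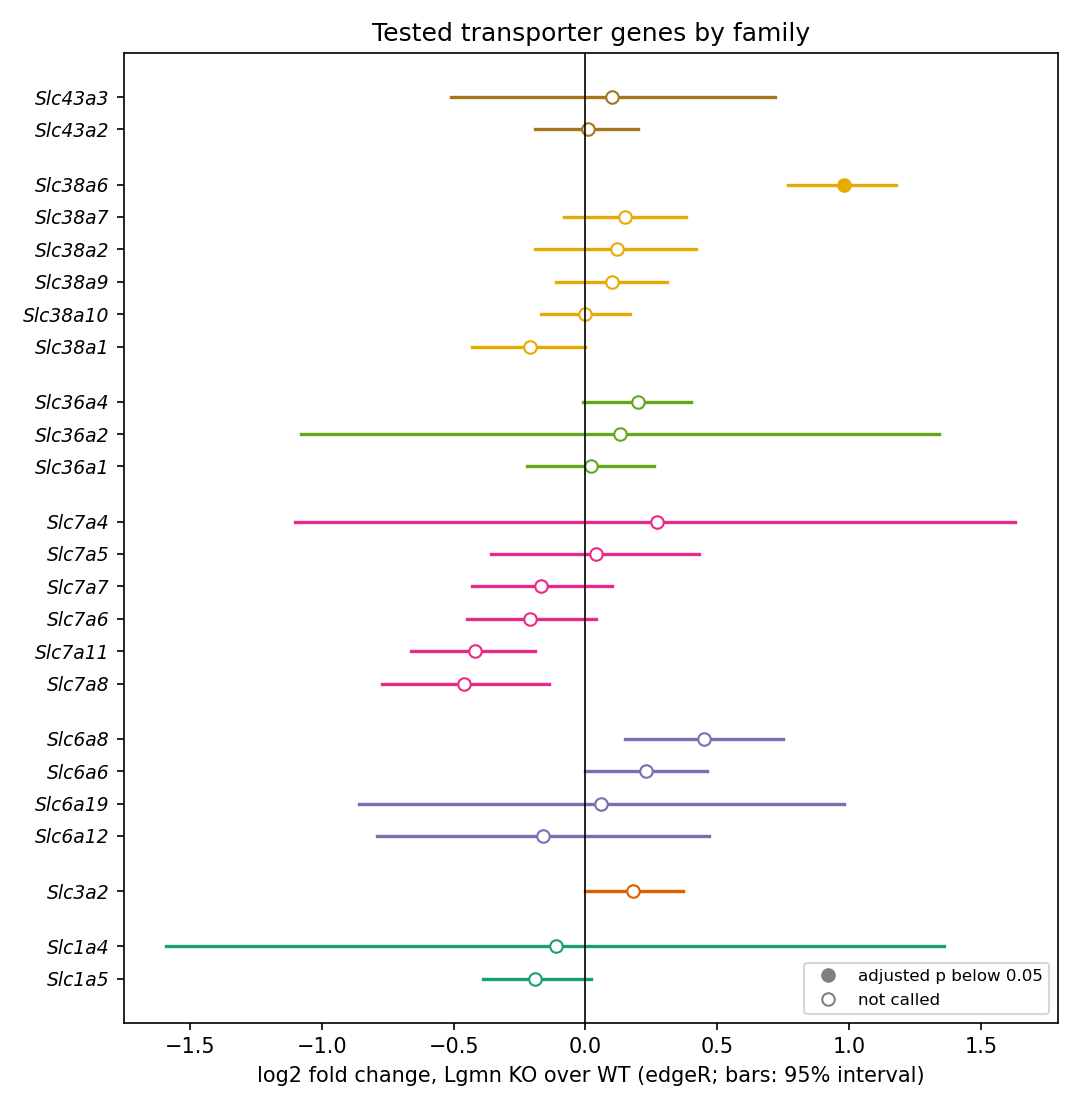
Log2 ratio of Lgmn KO to WT for the 24 tested transporter genes (horizontal axis), grouped by family, with 95% intervals from the edgeR fit; filled points passed an adjusted p of 0.05. Slc38a6 at 0.98 is the filled point, and the 6 Slc7a genes run from -0.46 to 0.27.

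The Slc38 family holds the sodium-coupled neutral amino acid carriers, which bring glutamine and alanine into cells or, in some members, serve internal membranes. Slc38a6, a little-studied member also known as SNAT6, rose in Lgmn KO. It was at 48.2, 51.1 and 56.8 CPM in Lgmn KO against 27.5, 26.2 and 25.5 in WT. Every Lgmn KO library thus stood well above every WT library, and the WT libraries were close together. The means were 52.0 ± 4.37 and 26.4 ± 1.03 CPM (SD, n = 3 each), a 1.97-fold rise with a log2 fold change of 0.98, a standard error of 0.09 and a 95% interval from 0.77 to 1.18 (edgeR quasi-likelihood test, adjusted p = 0.0126). Leaving out Lgmn KO replicate 2 ended the call (log2 fold change 0.99, adjusted p = 0.0812), as did leaving out WT replicate 3 (0.95, adjusted p = 0.054). Per length it was a minor carrier, with a mean of 4.51 FPKM in Lgmn KO against 2.31 in WT, and its share of transporter FPKM ran from 0.535% to 1.06% over the libraries.

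Slc38a6 (ENSMUSG00000044712) is protein coding and lies on chromosome 12 from 73286779 to 73354049 on the plus strand (GRCm38), 29.0 Mb from Lgmn on the same chromosome. No exon of another annotated gene overlaps its exons. It starts 69 bases from the start of Trmt5, a tRNA methyltransferase gene read from the other strand. Trmt5, named after its values were seen, was at 8.68, 10.8 and 11.5 CPM in Lgmn KO against 8.90, 11.5 and 10.2 in WT, a log2 fold change of 0.02 (adjusted p = 0.969, edgeR quasi-likelihood test). The stretch between both starts is shown because it is the sequence that Slc38a6, which rose, shares with Trmt5, whose groups overlapped. It is the plus strand of chr12:73286711-73286778 (68 bases, 67.6% G or C, RefSeq on GRCm38.p6), with the letters TGACGTCA of the cAMP response element in capitals:
Slc38a6: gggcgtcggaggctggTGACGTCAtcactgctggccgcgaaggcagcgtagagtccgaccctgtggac
That motif was searched for after this stretch had been read. On either strand it occurs in the 250 bases before the start of 1.77% of 27025 genes with a RefSeq promoter, and of 43 transporter genes matched by symbol only Slc38a6 has it. A match is a run of letters and says nothing of what binds there.

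**Figure D3:**
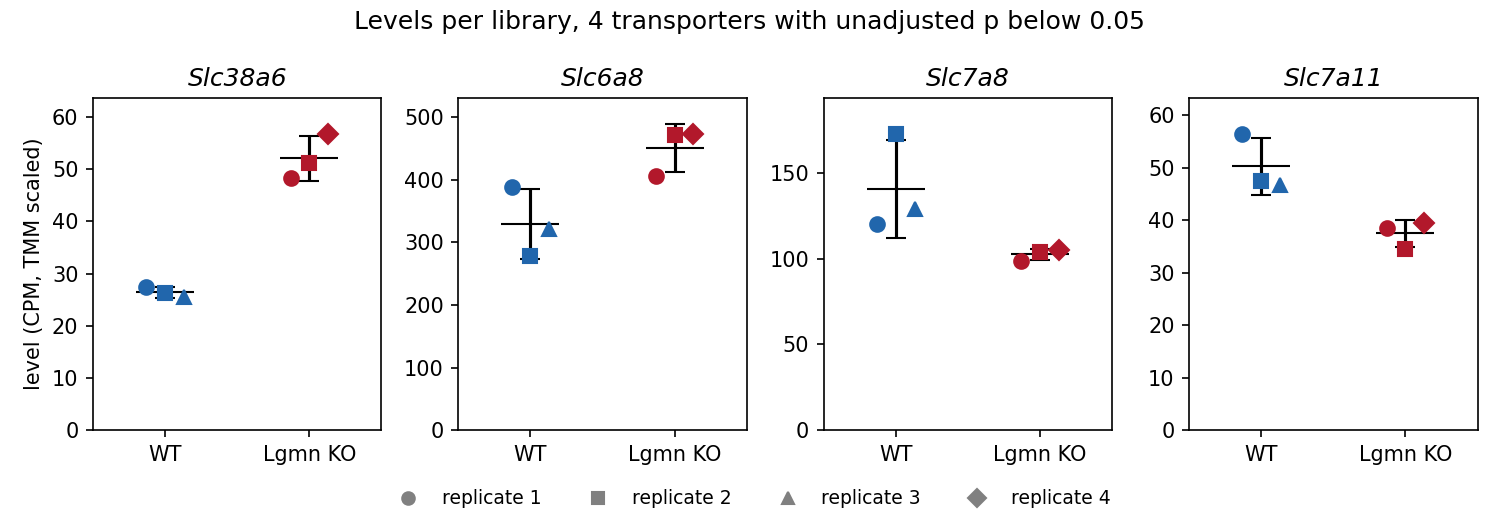
Level in CPM (vertical axes, each starting at 0) per library for the 4 transporter genes with an unadjusted p below 0.05; horizontal bars and whiskers are the mean and SD of 3 libraries and symbols mark the replicate. For Slc38a6 the Lgmn KO libraries sit between 48.2 and 56.8 CPM and the WT libraries between 25.5 and 27.5 CPM.

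The other members of the family were not called. Slc38a1, which takes up glutamine at the plasma membrane, was at 95.5, 113 and 119 CPM in Lgmn KO against 126, 122 and 131 in WT. Its groups did not overlap, with Lgmn KO the lower, but the log2 fold change of -0.21 did not pass (95% interval -0.43 to 0.00, adjusted p = 0.296, edgeR quasi-likelihood test). Slc38a2, the carrier that amino acid starvation is known to induce, was at 85.9, 97.5 and 102 CPM in Lgmn KO against 104, 74.7 and 83.8 in WT, so WT replicate 1 lay above every Lgmn KO library. Its log2 fold change was 0.12 (95% interval -0.19 to 0.42). Slc38a10, whose exons overlap those of Gm11769 on the other strand, lay at a mean of 163 CPM in both groups, with a 95% interval from -0.17 to 0.17 on the log2 scale, the narrowest of the 24 genes.

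Light chains of the Slc7 family carry the substrate and their heavy chain Slc3a2 carries them to the membrane. In these libraries the heavy chain had a positive and its most abundant partner a negative log2 fold change, and neither passed the test. Slc7a8 (LAT2), which exchanges neutral amino acids, was the leading light chain, with 59.4% to 67.8% of the FPKM summed over the partners of Slc3a2. It was at 98.8, 104 and 105 CPM in Lgmn KO against 120, 173 and 129 in WT. The Lgmn KO libraries lay close together below all WT libraries, among which WT replicate 2 stood far above the others. The log2 fold change was -0.46 with a standard error of 0.13 (95% interval -0.77 to -0.14, adjusted p = 0.148, edgeR quasi-likelihood test), and -0.28 without WT replicate 2 (adjusted p = 0.21). In the same WT library C1qa and the monocyte receptor gene Ccr2 were also highest. C1qa, called lower, was at 25.4, 34.7 and 36 CPM in Lgmn KO against 81.4, 259 and 156 in WT, and Ccr2 at 6.41, 3.88 and 4.33 CPM against 11.4, 67.2 and 35.6 (log2 fold change -2.96, adjusted p = 0.0727, edgeR quasi-likelihood test). Other macrophage markers had log2 fold changes of -0.74 for Csf1r, -1.09 for Fcgr1 and -0.51 for Adgre1, none of these 3 called. Itgam (-0.36), Mertk (-0.24) and Lyz2 (-0.08) were negative too. Cd68 (0.18) and Ptprc (0.01) were positive, and none of these was called by edgeR either. Of the 9 macrophage markers 6 had an unadjusted p below 0.05, all of them negative, and DESeq2 and limma each called 2. Of 5 tested monocyte markers 4 were negative, 3 of them at an unadjusted p below 0.05, with 0 called by edgeR and 1 by DESeq2. The list summed to 436 to 541 CPM in Lgmn KO against 432 to 643 in WT. Of 4 tested dendritic cell markers 3 were negative, all 3 at an unadjusted p below 0.05, and 1, Zbtb46, was called lower. That list summed to 3.21 to 5.09 CPM in Lgmn KO against 5.30 to 15.5 in WT. The T and NK cell markers had a median log2 fold change of -1.95 over 4 tested, 0 of them called by edgeR (4 at an unadjusted p below 0.05, 2 by limma), while DESeq2, which tested more of the list, called 7. Their sum of 1135 to 1362 against 820 to 1060 CPM was nearly all Il7r. The 3 tested endothelial markers had a median of -2.52, with 2 at an unadjusted p below 0.05 and Flt1 called lower. Kdr, most of their sum, was at 0.01. Tie1, too low to be tested, was at 0.296, 0.409 and 0.283 CPM in Lgmn KO against 0.0, 0.0463 and 0.125 in WT. Of 5 tested neutrophil markers 3 were positive and 0 called (0 at an unadjusted p below 0.05), with sums of 200 to 229 CPM in Lgmn KO against 169 to 199 in WT. For fibroblast markers 5 of 5 tested were negative and 0 called by edgeR (4 at an unadjusted p below 0.05, 1 by DESeq2 and 0 by limma). The part of these cell types in the values of Slc7a8 and Slc7a11 was not tested.

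Slc7a11 (xCT) is the light chain of the exchanger that imports cystine, the raw material of glutathione, in exchange for glutamate. It was at 38.5, 34.5 and 39.4 CPM in Lgmn KO against 56.5, 47.5 and 46.8 in WT, with all Lgmn KO libraries below all WT libraries. The log2 fold change was -0.42 with a standard error of 0.10 and a 95% interval from -0.66 to -0.19, and it missed the threshold (adjusted p = 0.0934, edgeR quasi-likelihood test). DESeq2's Wald test called it (log2 fold change -0.41, adjusted p = 0.0274). DESeq2 called 4 of the 24 transporters (Slc38a6, Slc6a8, Slc7a8 and Slc7a11), where it called 5.45% of all genes it tested. Limma called 2 (Slc38a6 and Slc6a8) against 2.71% of all genes, and edgeR at an adjusted p below 0.1 called 2 (Slc38a6 and Slc7a11) against 4.01%. Although its CPM exceeded that of Slc7a7, per length it was a minor partner, at 4.78% to 7.34% of the light chain FPKM.

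The stretch before the start of Slc7a11 is shown because it holds the letters of the element through which ATF4, the factor of the amino acid response, is known to act. It is the minus strand of chr3:50443615-50443863 (249 bases, 43.4% G or C, RefSeq on GRCm38.p6), and capitals mark the 2 matches to TGATGNAA on either strand:
Slc7a11: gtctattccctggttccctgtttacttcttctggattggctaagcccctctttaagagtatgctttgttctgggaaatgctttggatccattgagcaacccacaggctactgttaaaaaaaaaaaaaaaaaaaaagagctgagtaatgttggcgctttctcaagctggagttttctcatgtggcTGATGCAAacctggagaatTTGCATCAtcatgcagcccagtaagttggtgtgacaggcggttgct
The matches begin 66 and 47 bases before the start and face each other without overlapping. In the 250 bases before the start, 3.91% of all 27025 genes hold such a match. Among the 43 matched transporters there were 2 (4.65%), Slc7a11 and Slc7a7. The core of the antioxidant response element, TGACNNNGC, occurred in 7 of the 43 (16.3%, against 11.5% of all genes). Only 16 of the 43 were genes tested here, and of the 7 only Slc38a2 and Slc7a6 were. The core of the CLEAR element of lysosomal genes, TCACGTGA, occurred in 0 of the 43 (0.907% of all genes). Atf4 itself had higher values in Lgmn KO, given with its pathway.

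The other partners had smaller fold changes. Slc7a7 (y+LAT1), which exports cationic amino acids and whose loss in people is known to impair macrophages, was at 29.6, 33.1 and 36.8 CPM in Lgmn KO against 34.6, 41.9 and 35.3 in WT, with overlapping groups. Its exons overlap those of Oxa1l on the other strand, and whether counting used the strand is not stated in the labels, so their reads cannot be told apart there. Slc7a6 (y+LAT2) was at 18.6 ± 1.87 and 21.5 ± 0.786 CPM (SD, n = 3 each), with a log2 fold change of -0.21 (95% interval -0.45 to 0.04). Slc7a5 (LAT1), the leucine carrier of dividing and activated cells, was low at 8.73, 12.9 and 11.1 CPM in Lgmn KO against 9.97, 11.8 and 10 in WT. Slc7a10 had 0 counts, and Slc7a13, which pairs with the renal heavy chain, had 4 counts in all. Slc7a4 was near the limit of testing (log2 fold change 0.27, 95% interval -1.10 to 1.63).

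Slc3a2 was at 456, 424 and 489 CPM in Lgmn KO against 413, 419 and 374 in WT. All Lgmn KO libraries lay above all WT libraries, and the log2 fold change of 0.18 did not pass (standard error 0.08, adjusted p = 0.297, edgeR quasi-likelihood test). Per length, the ratio of Slc3a2 to the sum of Slc7a5, Slc7a6, Slc7a7, Slc7a8, Slc7a10 and Slc7a11 was 1.68, 1.49 and 1.68 in Lgmn KO and 1.27, 0.997 and 1.11 in WT. The ratio was thus higher in every Lgmn KO library than in any WT library. It was formed with the values of its parts known and has no test.

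**Figure D4:**
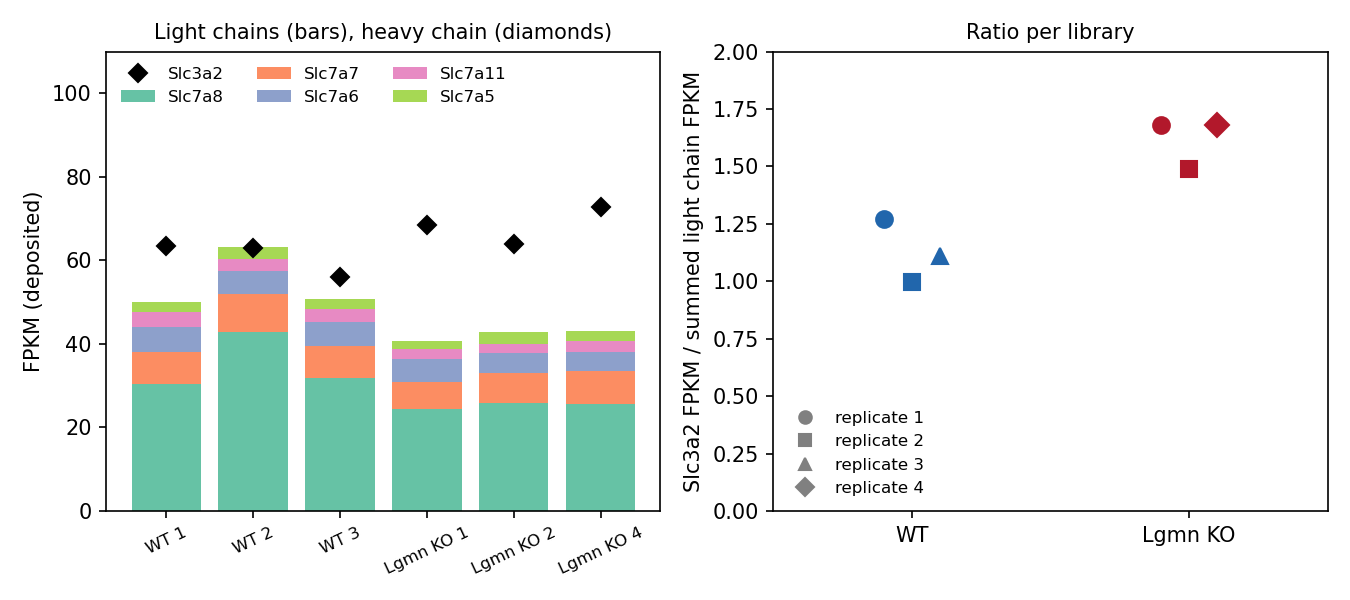
Left, FPKM per library (vertical axis) of the Slc7a light chains stacked as bars, with the heavy chain Slc3a2 as black diamonds. Right, the ratio of Slc3a2 to the summed light chains per library, which is 1.49 to 1.68 in Lgmn KO and 0.997 to 1.27 in WT.

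The Slc6 family was represented by carriers of taurine and creatine rather than of transmitters. Slc6a8, which brings creatine into cells that buffer their ATP with it, was at 406, 472 and 474 CPM in Lgmn KO against 389, 278 and 321 in WT. The groups did not overlap, with WT replicate 1 closest to Lgmn KO. The log2 fold change was 0.45 with a standard error of 0.13 and a 95% interval from 0.15 to 0.75, and it did not pass in the edgeR quasi-likelihood test (adjusted p = 0.139). It passed once WT replicate 1 was left out (log2 fold change 0.59, adjusted p = 0.0281). DESeq2 also called it (adjusted p = 0.0247), and so did limma when libraries were weighted (adjusted p = 0.0495). Heart muscle is known to express this gene too, and the 9 cardiomyocyte markers summed to at most 5.01 CPM in any library. The part of such RNA in the values of Slc6a8 was not tested.

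Slc6a6, the carrier of taurine and the most abundant transporter, was at 1238, 1356 and 1332 CPM in Lgmn KO against 1255, 981 and 1113 in WT. WT replicate 1 exceeded the lowest Lgmn KO library, and the log2 fold change of 0.23 did not pass (95% interval -0.00 to 0.46, adjusted p = 0.287, edgeR quasi-likelihood test). Slc6a12, a carrier of the osmolyte betaine and of GABA, was at 5.57, 4.60 and 3.49 CPM in Lgmn KO against 6.81, 3.79 and 4.67 in WT. Slc6a19, a neutral amino acid carrier of gut and kidney, had 11 to 29 counts per library and overlapping groups. Exons of Slc6a6, Slc38a9, Slc43a2 and Slc7a4 also overlap an annotated gene on the other strand, with the same limit as for Slc7a7. In Slc6a, 0 of 4 tested genes passed under edgeR's quasi-likelihood test, 1 reached an unadjusted p below 0.05, and DESeq2 and limma each called 1, Slc6a8 in all cases.

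Carriers of the lysosome, the organelle in which legumain works, showed no call. Slc36a1 (PAT1), which exports small neutral amino acids from lysosomes with protons, was at 229, 211 and 206 CPM in Lgmn KO against 241, 185 and 211 in WT. The groups overlapped throughout, with a log2 fold change of 0.02 (95% interval -0.22 to 0.26). Slc36a4 (PAT4), a carrier of proline and tryptophan on internal membranes, was at 214, 227 and 214 CPM in Lgmn KO against 207, 169 and 197 in WT. Its groups did not overlap, and the log2 fold change of 0.20 did not pass (95% interval -0.01 to 0.40, adjusted p = 0.311, edgeR quasi-likelihood test). Slc38a7 (SNAT7), which releases glutamine from lysosomes, was at 113, 114 and 127 CPM in Lgmn KO against 117, 93.5 and 109 in WT (log2 fold change 0.15, 95% interval -0.08 to 0.38). Slc38a9, the arginine sensor that signals to mTORC1 from the lysosomal membrane, was at 35.2, 41.2 and 36.3 CPM in Lgmn KO against 37.2, 34.5 and 33.4 in WT (log2 fold change 0.10, 95% interval -0.11 to 0.31). Each of these 4 intervals held 0 and ended at 0.40 or lower. Slc7a14 had 0 counts.

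Slc36a2 (PAT2), a carrier of small amino acids at the plasma membrane, varied more within the groups than between them. In the order 1, 2, 4 for Lgmn KO and 1, 2, 3 for WT it had 165, 52 and 103 counts against 172, 63 and 74, or 8.14, 2.66 and 4.85 CPM against 8.37, 2.91 and 3.08 CPM. The library numbered 1 was the highest of each group, and the log2 fold change was 0.13 (95% interval -1.08 to 1.34).

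In the Slc1 family, Slc1a5 (ASCT2), the exchanger through which many cells take up glutamine, was at 43.6, 47.7 and 41.9 CPM in Lgmn KO against 54.9, 47.0 and 49.5 in WT. Lgmn KO replicate 2 lay just above the lowest WT library, and the log2 fold change of -0.19 did not pass (95% interval -0.39 to 0.02, adjusted p = 0.34, edgeR quasi-likelihood test). Its relative Slc1a4 (ASCT1) had 3 to 16 counts per library. In the Slc43 family, Slc43a2 (LAT4), which lets branched-chain amino acids and phenylalanine leave cells, was at 330, 372 and 388 CPM in Lgmn KO against 341, 375 and 369 in WT. With a 95% interval from -0.19 to 0.20, a rise of more than 0.20 on the log2 scale lay outside it. Slc43a3, which despite its family moves purine bases, was at 9.42 ± 1.26 and 8.77 ± 3.39 CPM (SD, n = 3 each).

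Set side by side, the families differed in the sign of their medians by small amounts. The median log2 fold change over tested genes was -0.19 in Slc7a (6 genes, 4 of them negative) and -0.15 in Slc1a (2 genes, both negative). It was 0.18 in Slc3a (1 gene), 0.14 in Slc6a (4 genes, 3 positive), 0.13 in Slc36a (3 genes, all positive), 0.11 in Slc38a (6 genes, 5 positive) and 0.05 in Slc43a (2 genes, both positive). The Slc7a values leave out Slc7a1 and Slc7a2, as the rule does, and both had positive log2 fold changes (0.23 and 1.32). Slc7a2 was called higher in Lgmn KO (adjusted p = 0.0212, edgeR quasi-likelihood test). The sign of the Slc7a values thus holds only for the genes kept by the rule. The Slc7a sum was lower in every Lgmn KO library (40.8 to 43.3 FPKM) than in any WT library (50 to 63.3 FPKM), and Slc3a was higher (64.0 to 72.8 against 56.1 to 63.5 FPKM). The Slc6a sum overlapped (156 to 175 against 120 to 161 FPKM), as did Slc36a (62.8 to 67.1 against 52.7 to 69.4), Slc38a (74.8 to 83.9 against 69.3 to 84.6), Slc43a (19.4 to 22.6 against 21.3 to 21.7) and Slc1a (6.13 to 6.99 against 6.92 to 8.16). Families were compared by their values alone, and with 3 libraries against 3 no exact permutation test could go below p = 0.10. The medians of Slc7a (-0.22 to -0.16), Slc3a (0.08 to 0.24), Slc6a (0.10 to 0.26) and Slc38a (0.04 to 0.19) kept their sign under every alternative that was run. Those of Slc1a, Slc36a and Slc43a did not. All alternatives used the same libraries, so a kept sign is no independent support. On the log2 scale the SD of the family median between libraries of a group was 0.072 for Slc7a, 0.096 for Slc3a, 0.154 for Slc6a and 0.091 for Slc38a.

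Genes that act with these carriers were nearly all below the threshold, as were nearly all tested genes. The counts of such genes are to be read against the shares of all tested genes. Those were 0.789% for edgeR, 17.5% at an unadjusted p below 0.05, 5.45% for DESeq2 and 2.71% for limma. In the amino acid response governed by ATF4, 0 of 22 tested genes passed under edgeR's quasi-likelihood test, 6 reached an unadjusted p below 0.05, DESeq2 called 3 and limma 2. Their median log2 fold change was 0.15, with 15 positive. Atf4 was at 329, 348 and 330 CPM in Lgmn KO against 289, 250 and 253 in WT (log2 fold change 0.35, adjusted p = 0.0856), and Mthfd2, a mitochondrial folate enzyme, at 37.5, 47.0 and 43.2 CPM in Lgmn KO against 31.9, 30.9 and 28.6 in WT (log2 fold change 0.48, adjusted p = 0.0797; edgeR quasi-likelihood test). The groups did not overlap for either gene. Slc7a11, whose start is preceded by the motif matches shown above, had a log2 fold change of the opposite sign to that of Atf4. Neither gene was called by edgeR, and a link between them was not tested.

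For glutathione synthesis and the use of cystine, which Slc7a11 feeds, 0 of 9 passed by the edgeR quasi-likelihood test (3 at an unadjusted p below 0.05, 0 by DESeq2 and 0 by limma), with a median of 0.15. Gclc and Gclm, the subunits of the rate-limiting enzyme, had log2 fold changes of 0.22 and 0.15, and the genes of smallest p were Ggt5 (-2.0, adjusted p = 0.171), a low-level surface enzyme, and the lipid peroxide reductase Gpx4 (0.26, adjusted p = 0.214). Among enzymes of glutamine, glutamate, serine, glycine and branched-chain amino acids 0 of 21 passed by edgeR (4 at an unadjusted p below 0.05, 0 by DESeq2 and 0 by limma), with a median of 0.02. Shmt1, a serine and glycine enzyme, had the values 1.13, 1.63 and 1.51 CPM in Lgmn KO against 2.29, 2.50 and 1.92 in WT, so the groups did not overlap, with a log2 fold change of -0.64 (adjusted p = 0.259).

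Of 33 genes through which amino acids control mTORC1, 0 passed by edgeR, 5 had an unadjusted p below 0.05, and DESeq2 called 2 and limma 0. Their median was 0.01, and Rheb and Lamtor1, the activating GTPase and a lysosomal anchor, gave log2 fold changes of 0.32 and 0.28, with adjusted p = 0.105 and 0.113. Of 6 lysosomal carriers from other families 0 passed by edgeR (2 at an unadjusted p below 0.05, 0 by DESeq2 and 0 by limma). Ctns, the cystine exporter, was at 78.0, 76.6 and 66.7 CPM in Lgmn KO against 41.3, 60.4 and 64.3 in WT (adjusted p = 0.251), and the log2 fold change of Mfsd12, which imports cysteine into lysosomes, was 0.27 (adjusted p = 0.205). Of 20 cytosolic aminoacyl-tRNA synthetases 0 passed by edgeR (3 at an unadjusted p below 0.05, 1 by DESeq2, 0 by limma), with Cars at 0.36 and Aars at 0.22 (adjusted p = 0.113 and 0.275). Of 12 tested carriers of amino acids that the rule leaves out, 1 rose and 0 fell. That gene was Slc7a2, the arginine carrier, at 46.6, 52.6 and 41.7 CPM in Lgmn KO against 17.3, 22.9 and 16.4 in WT. Slc32a1, the vesicular GABA carrier, came next at a low level (log2 fold change 0.92, adjusted p = 0.181, edgeR quasi-likelihood test).

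**Figure D5:**
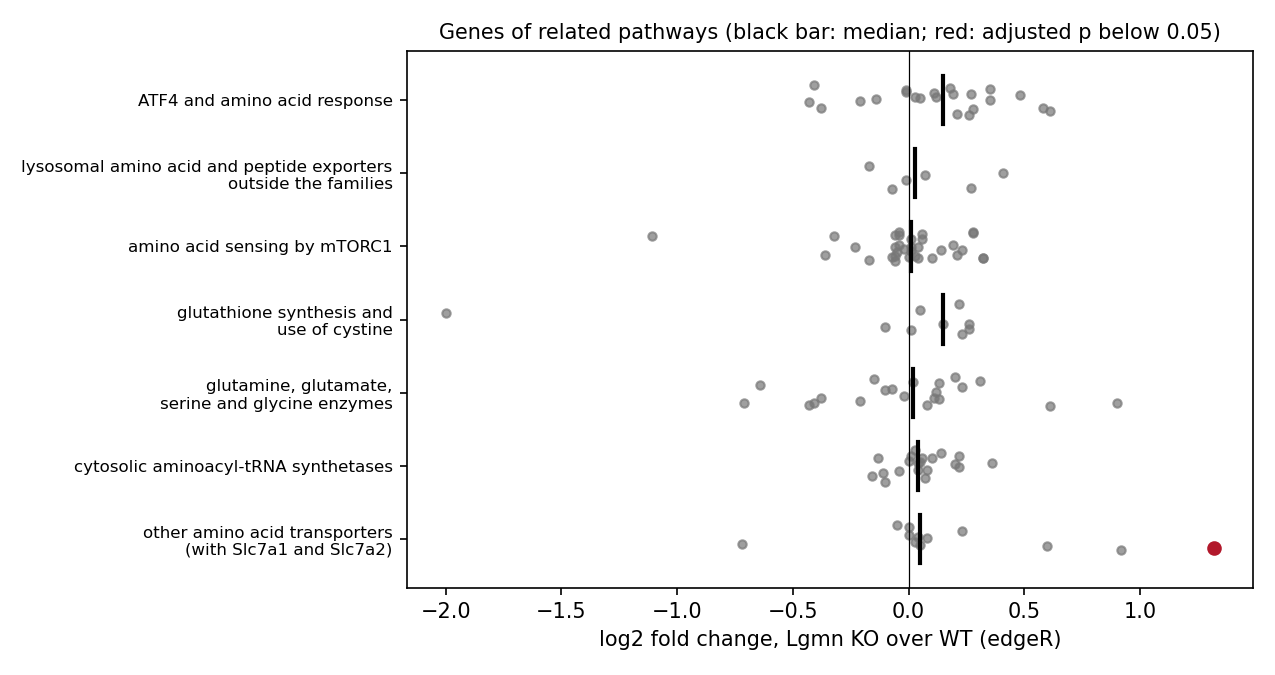
Log2 ratio of Lgmn KO to WT (horizontal axis) for the tested genes of 7 related lists, 1 point per gene, with the list median as a black bar and genes past an adjusted p of 0.05 in red. The medians lie between 0.01 and 0.15, and Slc7a2 is the red point.

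In the authors' deposited table, which marks 79 genes as up and 343 as down, 0 of the 64 genes carry a mark. For Slc38a6 the authors' deposited table gives a log2 fold change of 0.96 and a q-value of 1.07e-08. The smallest size of log2 fold change that the authors' deposited table marks is 1.002. Slc6a8, Slc7a8 and Slc7a11 have q-values of 0.0529, 0.0752 and 0.0996 in the authors' deposited table.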

How the data were processed

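Messenger RNA of sorted cardiac macrophages was sequenced in 3 Lgmn KO and 3 WT libraries. Per the submitters' processing notes, HISAT2, TopHat and TopHat2 2.0.9 were used in roles not stated, and the build is named as human (hg38). The table's positions are nevertheless of mouse GRCm38: 47 of the 64 genes match GENCODE M21 in both ends. For the read counter and its use of strand, the tool and setting were not given in the sources used here. Per the file headers, the authors deposited a raw read count and an FPKM value per gene and sample, their group means, a log2 fold change, and a p-value and q-value per gene, and these last were only quoted.

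Counts were filtered with filterByExpr, scaled by TMM and tested with edgeR 4.0.16 in R 4.3.3 (quasi-likelihood, no covariate), with adjustment over all 12546 tested genes. Standard errors come from the F statistic and intervals from its total degrees of freedom (7.51). That total adds prior degrees of freedom, estimated over all genes, to the residual ones. FPKM was only described. Within groups, chi-square per degree of freedom between libraries was 14.0 to 42.7, so each library counts once. In simulated counts for this comparison (12400 genes), 75.5% of genes changed 2-fold (74 genes) and 93.9% of those changed 4-fold (93 genes) were called. Of 12203 unchanged genes 15 were called as well. Changes below 2-fold were not simulated, so the share of them that would be called is not known. Alternatives used DESeq2 1.42.0, limma 3.58.1, other scaling, no filter, a threshold of 0.1, single libraries left out and a replicate block.

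Genes named are those with a p below 0.05, the 3 of highest FPKM per family, lysosomal members, heavy chains and their partners, and the pathway genes called or of smallest p. Other genes named were chosen after their values were seen. Members and lists were chosen with earlier results of these data known. A few genes covered by this rule are not named here.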

Additional observations from a re-analysis of the deposited data

How the results depend on the processing

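The count of transporter genes called was 1 in the edgeR test, 4 with DESeq2 (Slc38a6, Slc6a8, Slc7a8 and Slc7a11), 2 by limma with sample weights (Slc38a6 and Slc6a8) and 2 at an adjusted p below 0.1 (Slc38a6 and Slc7a11). Without each library in turn it ran from 0 to 2. It was 0 without Lgmn KO replicate 2, where 3 of all genes were higher and 3 lower, and without WT replicate 3, where 7 were higher and 7 lower. It was 2 without WT replicate 1, where 169 were higher and 470 lower. All genes called under these settings were 772 with DESeq2 (5.45%), 340 by limma (2.71%) and 503 at 0.1 (4.01%). The log2 fold change of Slc38a6 ran from 0.89 to 1.04.

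With the replicate number as a block, which only numbers 1 and 2 share, the count was 0 (Slc38a6: 0.89, adjusted p = 0.0716). Same-numbered libraries correlated at 0.122 and 0.0757 in their deviations from the group means, and the labels do not say that a number marks a shared animal or day, so no pairing was taken. The cause was not tested.

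Of 252 values for 21 named genes under alternatives, 21 changed sign, all in 7 genes that were never called. Without single libraries the log2 fold change ran from -0.70 to 0.31 for Slc1a4, from -0.33 to 0.10 for Slc6a12, from -0.10 to 0.18 for Slc7a5, from -0.07 to 0.12 for Slc36a1, from -0.33 to 0.80 for Slc36a2, from -0.05 to 0.08 for Slc43a2 and from -0.08 to 0.46 for Slc43a3. With the replicate block it was -0.03 for Slc7a5, -0.08 for Slc36a2 and -0.03 for Slc43a2, and with library totals only -0.01 for Slc43a2. Depth limits Slc1a4 and Slc7a4, with at most 16 counts in a library, for which a change of 2-fold in either direction lay within the 95% interval. For Slc36a2 it also did, and its libraries of 1 group differed widely.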

Other observations

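Slc38a4, a carrier of cationic and neutral amino acids that was below the level needed for testing, had 3, 26 and 11 counts in the Lgmn KO libraries (in the order 1, 2, 4) against 4, 3 and 7 in the WT libraries. It was chosen after its values were seen. Its high values came from Lgmn KO replicates 2 and 4, while Lgmn KO replicate 1 lay within the WT range.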
